A study of Mus musculus with 46 samples.

Results

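The genes described here encode 10 enzymes of glycolysis, taken by symbol from a table of read counts for 54134 genes in 46 libraries of mouse microglia. They are Hk2, Gpi1, Pfkl, Aldoa, Gapdh, Pgk1, Pgam1, Eno1, Pkm and Ldha, and all 10 were found as rows of the table. Microglia are the resident macrophages of the brain. Of the libraries, 22 came from wild-type mice (WT) and 24 from 5xFAD mice, which the labels call AD, a model of Alzheimer's disease in which the neuronal Thy1 promoter drives human transgenes. They ate a diet with zero fiber, a control diet, or HAMSAB, a resistant high-amylose maize starch carrying acetate and butyrate. The groups were zero fiber WT with 6 libraries, and control WT, HAMSAB WT, zero fiber AD, control AD and HAMSAB AD with 8 each. Each held 4 female and 4 male libraries, except zero fiber WT with 4 female and 2 male. The sources used here give neither the age, nor the time on the diet, nor the way the cells were isolated. Whether libraries and mice match one to one is not stated, and the p-values therefore describe spread among libraries, which may be technical.

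Glycolysis splits glucose into pyruvate in the cytosol and yields ATP without oxygen. Hexokinase traps glucose in the cell as glucose 6-phosphate, phosphofructokinase commits it to the pathway, and pyruvate kinase makes pyruvate, which lactate dehydrogenase turns into lactate. Microglia carry out both glycolysis and mitochondrial respiration, and activated macrophages are known for raising glycolysis, in part through the transcription factor HIF-1. HIF-1 is a pair of the proteins HIF-1 alpha and ARNT that binds hypoxia response elements beside many glycolysis genes.

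The promoters of 3 genes are shown: Eno1, the member with a called change, Ldha, which had the next largest value in that comparison among the enzymes with more than a few reads, and Hk2, the entry step. Neither Ldha nor Hk2 was called in any comparison. Each line holds the 250 bases before the start in RefSeq (GRCm38.p6), read 5′ to 3′ on the gene's own strand. Capitals mark ACGTG or GCGTG, the core of the hypoxia response element, on either strand, and overlapping matches run together. The windows are chr4:150236458-150236707 (plus strand), chr7:46845554-46845803 (plus strand) and chr6:82774455-82774704 (minus strand).
Eno1: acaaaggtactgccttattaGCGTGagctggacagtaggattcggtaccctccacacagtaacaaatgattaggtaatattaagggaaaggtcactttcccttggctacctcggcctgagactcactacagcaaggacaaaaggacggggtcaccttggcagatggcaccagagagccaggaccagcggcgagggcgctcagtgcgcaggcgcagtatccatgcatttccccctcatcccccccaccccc
Ldha: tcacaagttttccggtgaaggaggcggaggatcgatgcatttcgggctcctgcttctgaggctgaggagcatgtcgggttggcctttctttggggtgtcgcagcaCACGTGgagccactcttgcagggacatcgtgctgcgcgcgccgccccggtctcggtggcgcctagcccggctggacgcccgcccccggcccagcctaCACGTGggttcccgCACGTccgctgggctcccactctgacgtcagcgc
Hk2: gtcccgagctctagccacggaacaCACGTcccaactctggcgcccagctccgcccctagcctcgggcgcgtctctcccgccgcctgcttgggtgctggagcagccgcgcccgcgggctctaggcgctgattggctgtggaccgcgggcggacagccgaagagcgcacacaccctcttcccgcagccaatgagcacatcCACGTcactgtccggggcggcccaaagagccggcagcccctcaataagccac

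The Eno1 window held 1 match, the Ldha window 5 and the Hk2 window 2, where a palindromic CACGTG counts once on each strand. Of the 10 members, 7 had at least 1 match in this window. Of all 32851 promoters listed, 38.6% had one, and 6.58% had 3 or more. G and C made up 55.6% of the Eno1 window, 67.2% of the Ldha window and 69.6% of the Hk2 window, against a median of 52.4% over all promoters. Among promoters within 5 percentage points of the same G and C content the share with a match was 41.8% for Eno1, 65.0% for Ldha and 67.0% for Hk2. A match is a run of letters, not a measured binding site.

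Total counts ran from 52114 to 6950429 per library, and 44 of the 46 libraries had 1174514 or more. The lowest total belonged to replicate 2 of the zero fiber AD males, in which 1 read equals 15.5 CPM, the count scaled to one adjusted library size for all libraries. Replicate 1 of the zero fiber AD females is the library labelled female that had the male pattern, with Xist at 0.213 CPM and Ddx3y at 142 CPM. Values without these 2 libraries are given beside the comparisons that use them most. Zero fiber AD female replicate 2 had Ddx3y at 17.9 CPM beside Xist at 842 CPM. HAMSAB WT female replicate 4 had Ddx3y at 6.66 CPM beside Xist at 929 CPM. Neither was counted among the doubted libraries. Replicate numbers follow accession order and pair no libraries. The microglial markers P2ry12, Tmem119 and Cx3cr1 were high in all 45 libraries other than that of lowest depth. Their ranges were 4050 to 7280, 2430 to 4180 and 5800 to 9720 CPM. Of the 54134 genes, 12121 passed the low-count filter and were tested, among them 9 of the 10 enzymes.

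Levels differed widely along the pathway. Hk2, the inducible hexokinase (chromosome 6, 82725025 to 82774454, GRCm38), had the highest mean at 445 ± 59.4 CPM (SD, n = 46), with a median of 1025 counts per library. Aldoa, which splits fructose 1,6-bisphosphate (chromosome 7, 126795234 to 126800751), averaged 236 ± 38.8 CPM. Ldha, the lactate dehydrogenase A chain (chromosome 7, 46841475 to 46855627), averaged 214 ± 36 CPM.
These 3 enzymes also led on the scale that corrects for length, CPM per kilobase of the principal transcript. On that scale Aldoa stood at 156, Ldha at 121 and Hk2 at 80.6.

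Pkm, the muscle-type pyruvate kinase (chromosome 9, 59656368 to 59679375), averaged 158 ± 16.7 CPM, or 64.8 CPM per kilobase. Gpi1, glucose-6-phosphate isomerase (chromosome 7, 34201330 to 34230336), averaged 88.0 ± 12.2 CPM, or 30.5 per kilobase. Pfkl, the liver-type phosphofructokinase (chromosome 10, 77986947 to 78010083), averaged 71.1 ± 11.4 CPM, or 19 per kilobase. Eno1, alpha-enolase (chromosome 4, 150236721 to 150248879), averaged 57.5 ± 12.1 CPM, or 28.4 per kilobase.

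The 3 remaining enzymes were counted far lower. Gapdh, glyceraldehyde-3-phosphate dehydrogenase (chromosome 6, 125161715 to 125166467), averaged 16.5 ± 5.4 CPM with a median of 38 counts per library. Pgk1, phosphoglycerate kinase (chromosome X, 106187100 to 106203699), averaged 1.80 ± 1.43 CPM with a median of 4 counts and was at 0 in 3 libraries. Pgam1, phosphoglycerate mutase (chromosome 19, 41911923 to 41918660), had 78 counts in all and was at 0 in 13 libraries, so it did not pass the filter. A change in Pgk1 or Pgam1 of the size seen elsewhere was not detectable at this depth.

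The enzymes also differed in how much of their sequence other genes share. Each principal transcript was read in windows of 50 bases, and the share of windows found in no other annotated gene was 17.5% for Gapdh, 27.8% for Eno1, 32% for Pgk1 and 58.5% for Pgam1. It was 65.6% for Pkm, 74.7% for Gpi1, 82.9% for Ldha, 86.1% for Aldoa and 99.9% for Pfkl, and every window of Hk2 was its own. Level and share did not always go together, since Eno1 stood at 28.4 CPM per kilobase and Pfkl at 19. Gapdh windows occurred in 222 other genes. The gene Gm7336 held 82.5% of them and had 3251 counts in all, against 1878 for Gapdh itself. Pgk1-rs7 held 67.9% of the Pgk1 windows and had 0 counts. Eno1b, an Eno1-like gene at a locus of its own, held 70.5% of the Eno1 windows and had 6259 counts, against 6814 for Eno1. The handling of reads that match several genes is not given in the sources used here, and its part in these levels was not tested. Iffo1 (7753 counts) overlaps Gapdh and Gm26762 (1731 counts) overlaps Gpi1 on the other strand, and the strand setting of the counting is not given either. The levels of Gapdh, Pgk1, Pgam1 and Eno1 are therefore uncertain as levels of those genes.

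**Figure D1:**
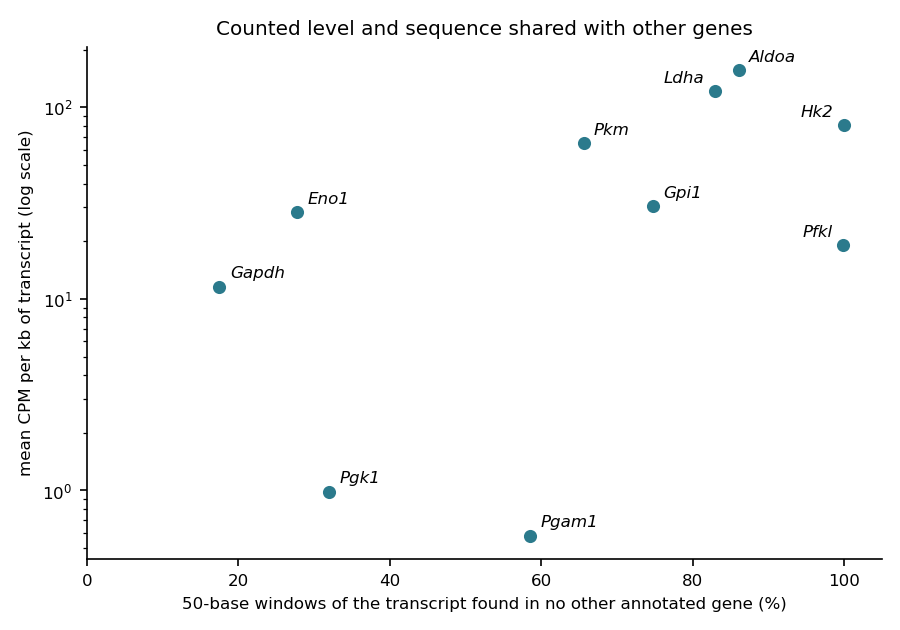
Mean CPM per kilobase of transcript (log scale) of the 10 enzymes against the percentage of their 50-base windows found in no other annotated gene. Each point is 1 gene over 46 libraries. Gapdh, Pgk1 and Pgam1 lie lowest, and Hk2 and Pfkl have nearly all windows to themselves.

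Other isozymes were mostly at lower levels. Ldhb, the lactate dehydrogenase B chain, was the exception at 566 ± 94.0 CPM, or 434 CPM per kilobase against 121 for Ldha. Hk1 averaged 17.4 ± 4.03 CPM and Hk3 36.5 ± 8.32 CPM, or 4.51 and 11.3 per kilobase against 80.6 for Hk2. Tpi1, triose-phosphate isomerase, averaged 61.6 ± 11.1 CPM, or 38.3 per kilobase. Pklr and Pgk2 had 0 counts in every library. Of the carriers, Bsg, the partner of lactate transporters, averaged 566 ± 111 CPM and Slc2a5, a hexose carrier known as a microglial gene, 342 ± 91.9 CPM. Slc2a1, the widespread glucose carrier, averaged 52.2 ± 11 CPM.

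The question of the study was how dietary fiber acts on microglia of both genotypes. Across the 6 diet-by-genotype groups most enzymes stayed within narrow limits. Group means of Hk2 ran from 426 CPM in zero fiber AD to 463 CPM in control WT, a ratio of 1.09. The ratio of the highest to the lowest group mean was 1.14 for Gpi1, 1.18 for Pkm, 1.21 for Ldha and 1.24 for both Pfkl and Aldoa. It was 1.40 for Eno1, 1.79 for Gapdh and 1.95 for Pgk1. For Pgam1 it was 9.27, from 2.46 CPM in zero fiber AD to 0.265 CPM in HAMSAB WT. There 1 read in the library of lowest depth equals 15.5 CPM, and without that library zero fiber AD stood at 0.601 CPM. Without the library of lowest depth zero fiber AD stood at 460 ± 44 CPM for Hk2 and 69.8 ± 9.8 CPM for Pfkl (n = 7), in place of 426 and 63 CPM. When the 6 means of an enzyme over all libraries were put in order, neighbours lay within 1 SD of each other except for 1 pair in Aldoa and 1 in Gapdh. Both times zero fiber AD was the lower group. Without the library of lowest depth the Aldoa pair lay within 1 SD too.

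**Figure D2:**
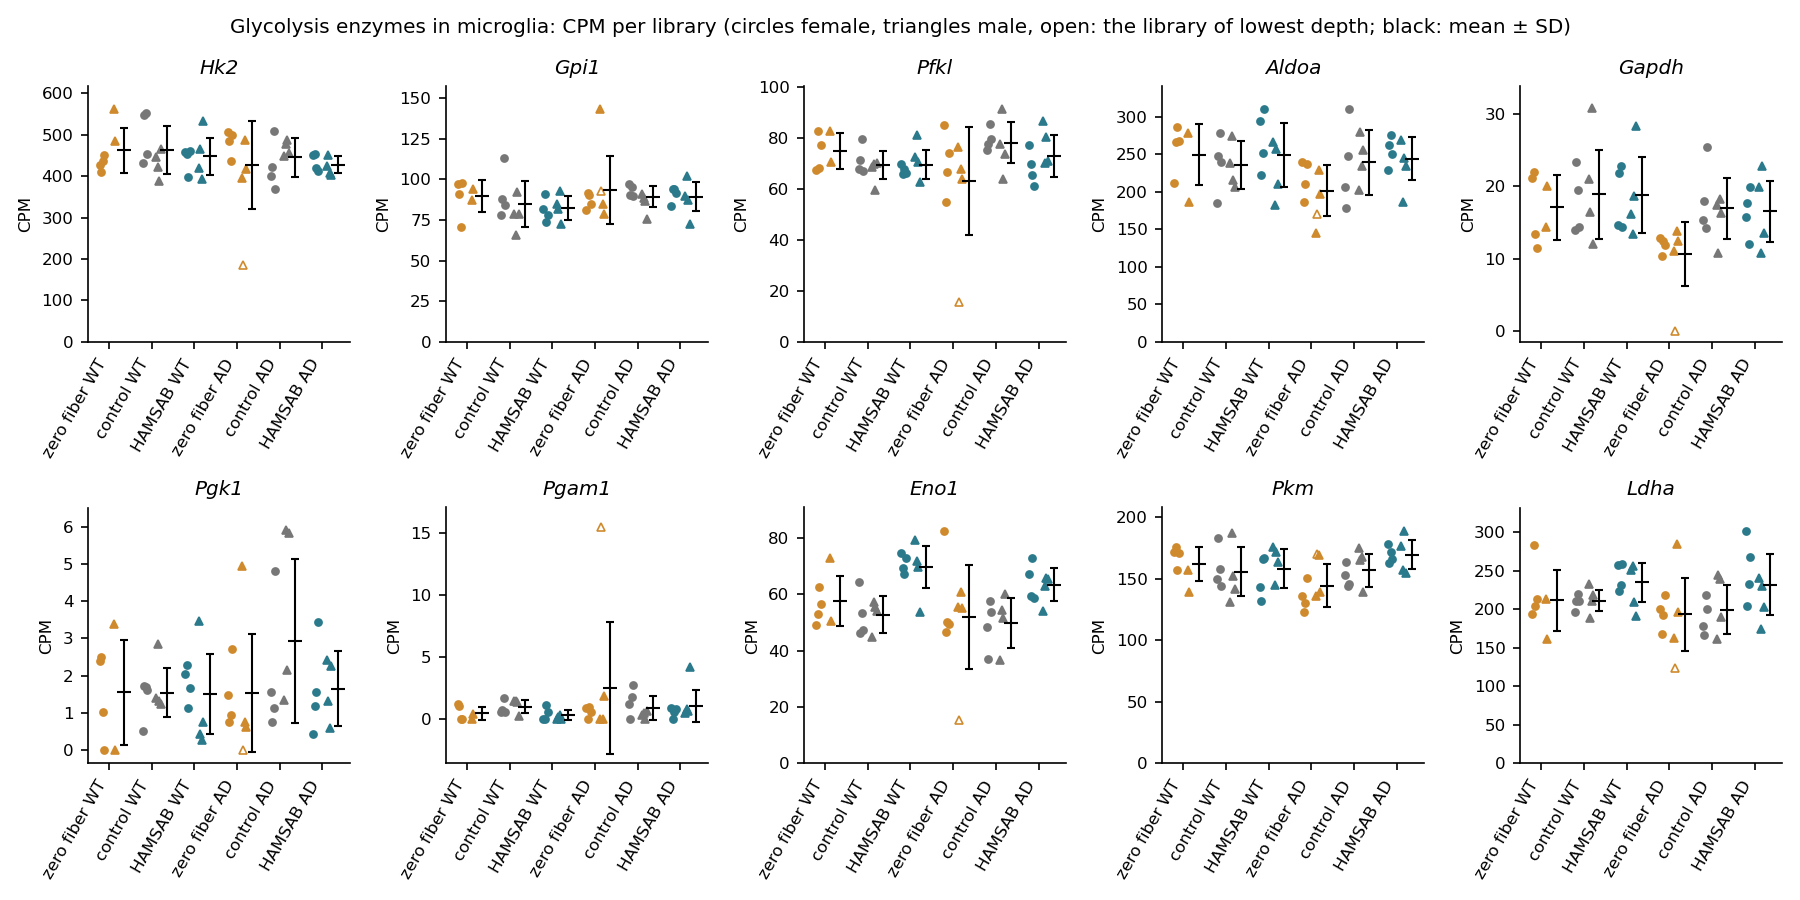
CPM of each enzyme in every library (y axis, its own scale for each gene) by diet and genotype (x axis), with circles for female and triangles for male libraries and black bars for the mean ± SD of a group. Eno1 on HAMSAB lies mostly above Eno1 on the control diet in both genotypes, and the open triangle is the library of 52114 counts.

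HAMSAB was compared with the control diet over both genotypes, 16 libraries against 16. Eno1 rose, with log2 fold change 0.38 ± 0.08 (SE), a 1.30-fold change with a 95% interval from 1.16 to 1.46 (edgeR adjusted p = 0.00821). It was the only enzyme called of the 9 tested, in a comparison that called 548 of 12121 genes, or 4.52% (299 to 917 genes with each library left out in turn). The other 8 had log2 values between -0.36 and 0.18, and the median over the 9 was -0.02, against 0.00 over all genes. Of the 9, 2 had an unadjusted p under 0.05, where 22% of all genes did. With 1 of 9 called, this is read as a measurement of Eno1 and not of the enzymes as a list.

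In the HAMSAB libraries Eno1 stood between 53.6 and 79.0 CPM with a median of 67.2 CPM (n = 16). In the control libraries it stood between 36.5 and 64.1 CPM with a median of 53.4 CPM (n = 16). All 16 HAMSAB libraries lay above the control median, and 11 of them lay above the highest control library, so the groups overlapped only in part. The lowest HAMSAB library was replicate 4 of the WT males, and the highest control library was replicate 1 of the WT females. In bulk libraries like these, a change in the number of cells of a type and a change in RNA per cell cannot be told apart.

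The direction was the same in the 2 genotypes, whose libraries are those of the pooled comparison. In WT mice Eno1 averaged 69.7 ± 7.44 CPM on HAMSAB and 52.7 ± 6.48 CPM on control (SD, n = 8 each), and the lowest, median and highest libraries were 53.6, 70.7 and 79.0 CPM against 44.7, 53.6 and 64.1 CPM. The log2 fold change in WT was 0.40 ± 0.12 and was not called (edgeR adjusted p = 0.111). It was called without HAMSAB WT male replicate 4 (log2 0.45, adjusted p = 0.0467), the library of lowest Eno1 in its group. That fit called 164 genes in this comparison, against 34 with all libraries. In AD mice Eno1 averaged 63.2 ± 5.85 CPM on HAMSAB and 49.9 ± 8.86 CPM on control (n = 8 each), and the lowest, median and highest were 53.9, 64.1 and 72.8 CPM against 36.5, 52.6 and 60.1 CPM. The log2 fold change in AD was 0.35 ± 0.12 and was not called (adjusted p = 0.145). None of the 9 enzymes was called within a genotype, where HAMSAB against control called 0.281% of all genes in WT and 0.0743% in AD. These shares stand for 34 and 9 genes, and with each library left out in turn the counts ran from 1 to 164 in WT and from 1 to 106 in AD. The difference of the Eno1 change between genotypes was -0.05 ± 0.17 on the log2 scale (adjusted p = 1), and this interaction called 0.0% of genes, with 0 to 1 gene over the libraries left out. Of all genes 670 had an unadjusted p under 0.05 there, and DESeq2 and limma voom called none either.

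Eno1b was measured beside it because reads of the 2 genes can be exchanged. Eno1b averaged 58.4 ± 7.80 CPM on HAMSAB and 51.9 ± 6.79 CPM on control (n = 16 each), a log2 fold change of 0.17 ± 0.08 that was not called (adjusted p = 0.185). Of the 16 HAMSAB libraries 7 exceeded the highest control library for Eno1b. With the counts of Eno1 and Eno1b added together, an alternative chosen after the data were seen, the log2 fold change was 0.28 ± 0.07 (adjusted p = 0.0133). The sum was thus called as Eno1 alone was, at a smaller size.

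**Figure D3:**
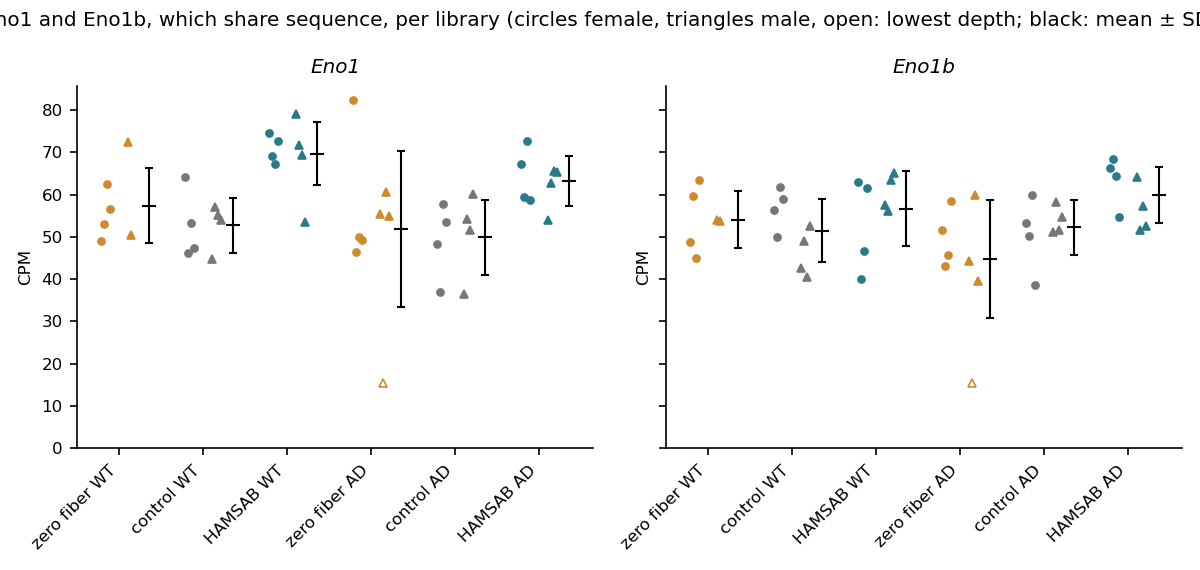
CPM of Eno1 and Eno1b (y axis) in each library by diet and genotype (x axis), with circles for female and triangles for male libraries and black bars for the mean ± SD. For Eno1 the HAMSAB groups average 69.7 CPM in WT and 63.2 CPM in AD, above the control groups at 52.7 and 49.9 CPM, and the Eno1b groups lie closer together.

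The numbers in the library titles fall in series, below 2900 or at 2900 and above, which the labels do not call batches. Below 2900, Eno1 averaged 67.9 ± 6.83 CPM on HAMSAB (n = 10) and 48.0 ± 11.8 CPM on control (n = 5). At 2900 and above it averaged 65.2 ± 8.44 CPM on HAMSAB (n = 5) and 52.8 ± 4.95 CPM on control (n = 11). The difference in mean log2 CPM was 0.52 in the first series and 0.30 in the second. Below 2900 only 1 control library was WT, at 64.1 CPM, the highest of the control libraries. There the difference was 0.53 in AD (5 HAMSAB and 4 control libraries) and 0.18 in WT (5 and 1). At 2900 and above it was 0.24 in AD (2 and 4) and 0.33 in WT (3 and 7). For Eno1b over both genotypes the difference was 0.08 below 2900 and 0.27 at 2900 and above. The larger change of Eno1 than of Eno1b thus lay mostly in the first series. With the series as a term in the fit, which drops HAMSAB AD female replicate 4 as the one library numbered 000, the log2 fold change of Eno1 was 0.37 ± 0.09 (adjusted p = 0.0230).

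Some genes listed as markers of other cells or of cell dissociation moved in the same comparison. Of the 10 immediate early and heat shock genes, 9 were tested and Jun was called, at 148 ± 24.1 CPM on HAMSAB and 196 ± 41.9 CPM on control (log2 -0.42, adjusted p = 0.00646). The summed level of these 10 genes ran from 388 to 535 CPM on HAMSAB and from 402 to 654 CPM on control. Of 6 neuronal markers, 4 were tested and Syt1 was called higher (log2 1.83, adjusted p = 0.0125). That call was lost with the title series as a term in the edgeR fit (adjusted p = 0.0629). The neuronal sum ran from 9.06 to 39.2 CPM on HAMSAB and from 3.32 to 19.9 CPM on control, with none of the 6 genes at 0 in every library. The 7 other marker lists, of macrophages, blood cells, other brain cells and vessels, had no called gene here. The part of these genes in the Eno1 result was not tested.

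Ldha came next among the well-counted enzymes. It averaged 234 ± 32 CPM on HAMSAB and 205 ± 24.1 CPM on control (n = 16 each), a log2 fold change of 0.18 ± 0.08 that was not called (adjusted p = 0.143). The HAMSAB libraries ran from 175 to 302 CPM with a median of 233 CPM, and the control libraries from 162 to 244 CPM with a median of 211 CPM. Most of the ranges overlapped, with 6 HAMSAB libraries above the highest control library. Below title number 2900 the difference in mean log2 CPM was 0.31, and at 2900 and above it was 0.07.

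The upper steps, and Pkm, which makes pyruvate, gave log2 values near 0 in this comparison. Hk2 had a fold change of 0.96 with a 95% interval from 0.89 to 1.05, Gpi1 0.99 (0.90 to 1.09), Pfkl 0.97 (0.89 to 1.06) and Aldoa 1.04 (0.93 to 1.16). Pkm had 1.05 (0.97 to 1.13). The upper bounds of these 5 enzymes lay below the 1.30-fold estimate of Eno1. The lower bound of Eno1 itself was 1.16, the same as the upper bound of Aldoa as rounded. Differences between enzymes were not tested. The interval of Gapdh ran from 0.81 to 1.18 and that of Pgk1 from 0.47 to 1.30.

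**Figure D4:**
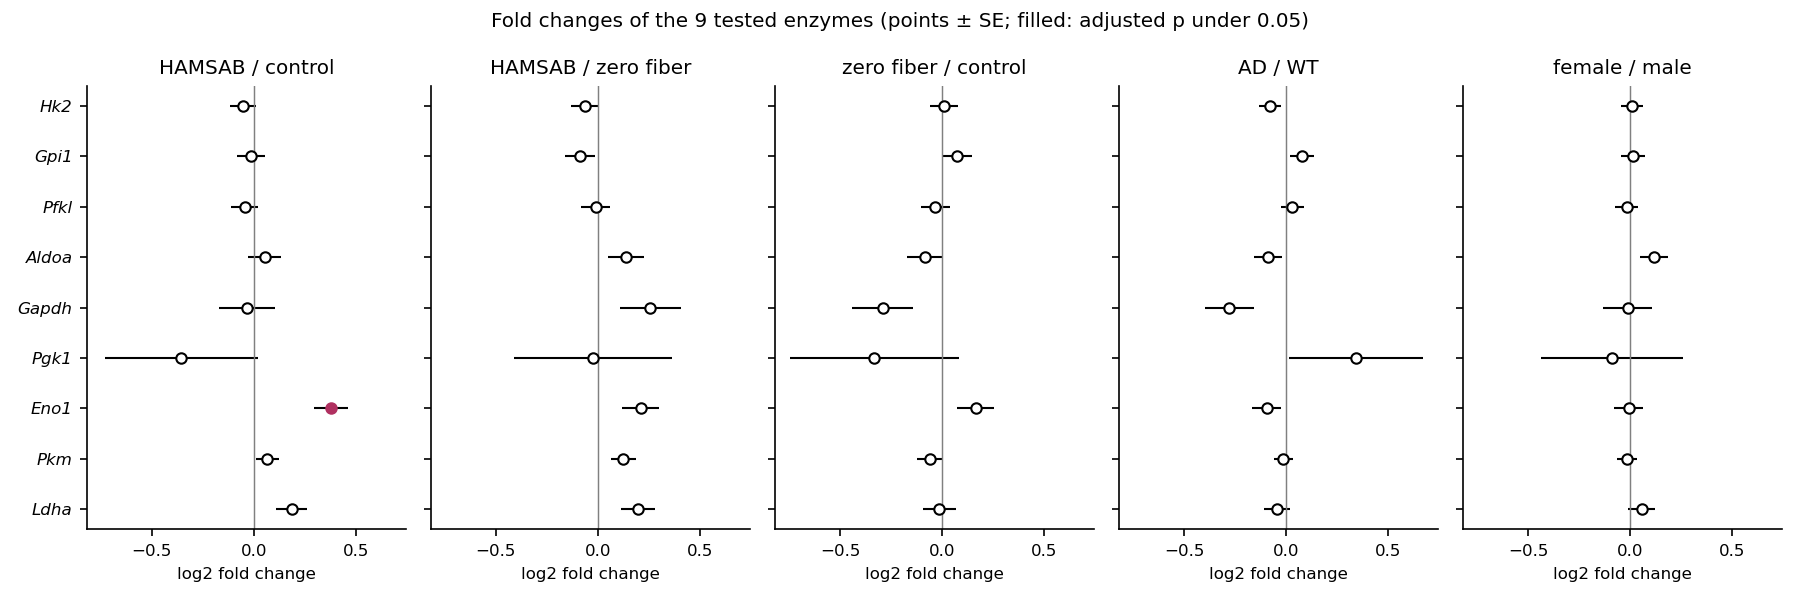
Log2 fold change ± SE (x axis) of the 9 tested enzymes (y axis) for HAMSAB against control, HAMSAB against zero fiber and zero fiber against control over both genotypes, AD against WT over the diets, and female against male. The filled point, Eno1 on HAMSAB against control at 0.38, is the one value with an adjusted p under 0.05.

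HAMSAB was next compared with zero fiber, 14 libraries against the same 16 HAMSAB libraries. Here 1.02% of genes (124, and 43 to 311 with each library left out) and none of the 9 enzymes were called by edgeR. Of the 9, 3 had an unadjusted p under 0.05, where 13.3% of all genes did. The log2 fold change was 0.21 ± 0.09 for Eno1 (adjusted p = 0.286), 0.20 ± 0.08 for Ldha (adjusted p = 0.272) and 0.13 ± 0.06 for Pkm (adjusted p = 0.361). The zero fiber libraries held Eno1 between 15.5 and 82.4 CPM with a median of 54.1 CPM (n = 14), a range that enclosed the HAMSAB libraries. Without the 2 libraries doubted above, the value was 0.26 ± 0.08 for Eno1 (adjusted p = 0.116), 0.19 ± 0.08 for Ldha (adjusted p = 0.334) and 0.13 ± 0.06 for Pkm (adjusted p = 0.382). One of them, labelled zero fiber AD female replicate 1, had the highest Eno1 of all 46 libraries at 82.4 CPM, and the other had 1 Eno1 read. The median over the 9 enzymes was 0.13, against 0.01 over all genes.

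Genes listed as markers of other cells or of cell dissociation moved in this comparison too. Of the 7 erythroid and choroid plexus genes 6 were tested, and 4 hemoglobin genes were called lower on HAMSAB, among them Hbb-bs at 28.7 ± 33.9 CPM against 138 ± 140 CPM on zero fiber (log2 -2.37, adjusted p = 0.0029). Hba-a2 was not called without the doubted libraries (adjusted p = 0.0797). The list summed to between 43.7 and 357 CPM on HAMSAB and between 139 and 775 CPM on zero fiber. Of 9 perivascular macrophage genes 8 were tested, and Mrc1, a mannose receptor, was called lower at 18.5 ± 8.59 against 35.5 ± 12.1 CPM (adjusted p = 0.0392, and 0.0915 without the doubted libraries). Their sum ran from 18.7 to 78.3 CPM on HAMSAB and from 31.9 to 102 CPM on zero fiber. Of 9 neutrophil and monocyte genes 4 were tested, and Ngp was called lower at 0.158 ± 0.498 against 1.67 ± 2.42 CPM (adjusted p = 0.0436), with Ly6g at 0 in every library. Jun was called lower at 148 ± 24.1 against 188 ± 33.2 CPM (log2 -0.37, adjusted p = 0.0411). The calls of Mrc1, Ngp and Jun were lost with 19, 21 and 18 of the 30 libraries left out one at a time. The other marker lists had no called gene, and the part of these genes in the enzyme values was not tested.

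Within AD mice the same pair of diets called 0.239% of genes (29, and 13 to 74 with each library left out) and none of the enzymes. Pkm averaged 170 ± 11.5 CPM on HAMSAB and 144 ± 17.5 CPM on zero fiber (n = 8 each), with lowest, median and highest libraries at 155, 169 and 189 CPM against 123, 137 and 170 CPM. All 8 HAMSAB libraries lay above the zero fiber median and 4 lay above every zero fiber library. The log2 fold change of 0.25 ± 0.08 had an unadjusted p of 0.00356 and was not called (adjusted p = 0.207). Without the doubted libraries it was 0.26 ± 0.09 (adjusted p = 0.246). Aldoa averaged 244 ± 28.8 CPM on HAMSAB and 202 ± 33.8 CPM on zero fiber in AD, a log2 fold change of 0.25 ± 0.12 (adjusted p = 0.433, and 0.457 without the doubted libraries). In WT mice Pkm averaged 158 ± 16 CPM on HAMSAB (n = 8) and 162 ± 14.1 CPM on zero fiber (n = 6). The change in AD minus that in WT was 0.26 ± 0.12 (adjusted p = 0.480), and 0.27 ± 0.12 without the doubted libraries. That interaction called 1.08% of genes, or 131, and the count ran down to 18 without zero fiber AD male replicate 3 and 22 without zero fiber WT male replicate 1. Within WT mice HAMSAB against zero fiber called 2.19% of genes, no enzyme, and no enzyme had an unadjusted p under 0.05 there. The 265 genes called in WT fell to 12 and 1 without zero fiber WT male replicates 1 and 2, the only males of that group.

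Zero fiber AD had the lowest group mean for 6 of the 10 enzymes, Hk2, Pfkl, Aldoa, Gapdh, Pkm and Ldha. Without the library of lowest depth its means of Hk2, Pfkl and Ldha were no longer the lowest. They were 460 CPM for Hk2, against 427 CPM in HAMSAB AD, and 69.8 CPM for Pfkl, against 69.2 CPM in control WT. For Ldha the mean was 204 CPM, above that of control AD at 200 CPM. How often other genes had their lowest mean in this group was not counted. Aldoa and Gapdh, the 2 that lay more than 1 SD from their neighbour with all libraries, are given in full. Aldoa ran from 145 to 240 CPM in zero fiber AD with a median of 204 CPM. In control AD it ran from 179 to 310 CPM with a median of 241 CPM, and in zero fiber WT from 187 to 286 CPM with a median of 267 CPM. Without the library of lowest depth Aldoa averaged 206 ± 33.8 CPM in zero fiber AD (n = 7). That lay within 1 SD of its neighbour, control WT at 236 ± 32.3 CPM. Gapdh averaged 10.6 ± 4.41 CPM in zero fiber AD, with 12.1 ± 1.15 CPM (n = 7) without the library of lowest depth, which had 0 Gapdh reads. It averaged 17 ± 4.17 CPM in control AD (n = 8) and 17.1 ± 4.54 CPM in zero fiber WT (n = 6).
Neither enzyme passed the test. For Gapdh the log2 fold change was -0.46 ± 0.21 for zero fiber against control in AD (adjusted p = 0.422) and -0.50 ± 0.23 for AD against WT on zero fiber (adjusted p = 1). Without the doubted libraries these were -0.46 ± 0.22 and -0.51 ± 0.24. For Aldoa the value for AD against WT on zero fiber was -0.26 ± 0.13 (adjusted p = 1), and -0.28 ± 0.14 without the doubted libraries (adjusted p = 0.868).

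Zero fiber against control called none of the enzymes over both genotypes, in AD or in WT, where it called 0.363%, 0.0578% and 0.00825% of all genes. These are 44, 7 and 1 genes, with 9 to 90, 0 to 12 and 1 to 8 when each library was left out. Over both genotypes no enzyme had an unadjusted p under 0.05, against 13.1% of all genes, and the 9 log2 values lay between -0.33 and 0.17. Hemoglobin genes rose in that comparison, among them Hbb-bs from 24.4 ± 22.9 to 138 ± 140 CPM (log2 2.63, adjusted p = 0.00262). The erythroid and choroid plexus markers summed to between 139 and 775 CPM on zero fiber and between 63.3 and 434 CPM on control, and Syt1, a neuronal gene, was called at 3.8 ± 4.23 against 1.11 ± 0.768 CPM (adjusted p = 0.0232, and 0.0927 without the doubted libraries). The Syt1 call was also lost with the title series as a term in the edgeR fit (adjusted p = 0.0777) and with limma voom (adjusted p = 0.184). The part of these marker genes in the enzyme values was not tested. For Pfkl the change on zero fiber in AD minus that in WT was -0.32 ± 0.14 (unadjusted p = 0.0298, adjusted p = 0.739), and -0.36 ± 0.13 without the doubted libraries (adjusted p = 0.498). That interaction called 0.0% of genes with edgeR, DESeq2 and limma voom alike, and 748 genes had an unadjusted p under 0.05.

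Genotype made no called difference to any of the enzymes on any diet. AD against WT called 1.68% of genes on HAMSAB, 0.00825% on zero fiber, 0.0% on control and 0.0165% over all diets. With each library left out the counts ran from 93 to 281 on HAMSAB (204 with all), from 0 to 5 on zero fiber (1 with all), at 0 on control and from 0 to 3 over all diets (2 with all). On control none were called by DESeq2 or limma voom either, and 655 genes had an unadjusted p under 0.05. Over all diets the largest well-counted value was that of Gapdh, at 14.7 ± 5.06 CPM in AD (n = 24) and 18.4 ± 5.21 CPM in WT (n = 22), a log2 fold change of -0.28 ± 0.12 (adjusted p = 0.630, and 0.561 without the doubted libraries). Hk2 had 433 ± 65.3 CPM in AD and 457 ± 50.8 CPM in WT, a fold change of 0.95 with a 95% interval from 0.88 to 1.02. Pkm had 157 ± 17.3 and 158 ± 16.4 CPM, a fold change of 0.99 (0.93 to 1.06).

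Sex made no called difference either, in a comparison of 24 female and 22 male libraries that called 0.124% of genes (15). One of the 24 is the library labelled female with the male pattern, and without the doubted libraries 22 genes and again no enzyme were called. The 9 log2 values lay between -0.09 for Pgk1 and 0.12 for Aldoa. None had an unadjusted p under 0.05, against 10.5% of all genes. Eno1 averaged 58.3 ± 11.2 CPM in libraries labelled female and 56.6 ± 13.3 CPM in male libraries. Its log2 value was -0.05 ± 0.06 without the doubted libraries, of which the one labelled female held the highest Eno1.

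The rest of the pathway was read from lists of genes. The other steps of glycolysis and the isozymes held 18 genes, of which 8 were tested, and none was called in any of the 17 comparisons. Their median log2 fold change for HAMSAB against control was 0.01, with 4 of 8 above 0. All 8 were above 0 for HAMSAB against zero fiber in AD (median 0.22) and for that change in AD minus WT (median 0.19). They were also above 0 for female against male (median 0.15), which includes the library labelled female with the male pattern. Over all genes 50.8%, 50.6% and 51.8% were above 0 in these comparisons, in the same order. They were picked from the 17 for this count, and the first 2 share libraries. The list was not tested as a set. The smallest p belonged to Eno3, the muscle enolase, at 27 ± 5.69 CPM in female and 21.7 ± 4.99 CPM in male libraries (log2 0.32, adjusted p = 0.136). Hk3 averaged 28.8 ± 7.46 CPM in zero fiber AD and 41.8 ± 6.31 CPM in control AD (log2 -0.50, adjusted p = 0.177), and the value was -0.47 ± 0.16 without the doubted libraries (adjusted p = 0.279). Of 21 carriers and regulators 18 were tested and none was called, with a median of 0.04 for HAMSAB against control. Pfkfb3, which makes the activator of phosphofructokinase, averaged 81.7 ± 9.67 CPM on HAMSAB and 67.4 ± 11 CPM on zero fiber (log2 0.28, adjusted p = 0.110). Slc16a1, a lactate carrier, had a log2 fold change of 0.56 ± 0.18 for HAMSAB against zero fiber in WT (adjusted p = 0.0882).

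All 7 genes of the pentose phosphate pathway, which branches off after hexokinase, were tested, and none was called. G6pdx, its first enzyme, came closest, at 60.1 ± 4.71 CPM in AD and 46.7 ± 8.11 CPM in WT on HAMSAB (log2 0.36, adjusted p = 0.0549). Of 17 HIF-1 and hypoxia genes 12 were tested, and 1 of them was called in each of 4 comparisons, Arnt in 3 and Egln1 in 1. Arnt, the partner of HIF-1 alpha, averaged 94.7 ± 10.5 CPM in HAMSAB WT (n = 8) against 63.9 ± 12.1 CPM in zero fiber WT (n = 6), a log2 fold change of 0.61 ± 0.15 (adjusted p = 0.0172). In HAMSAB AD it averaged 63.5 ± 11.4 CPM, lower than in HAMSAB WT (log2 -0.59 ± 0.13, adjusted p = 0.0072). The change in AD minus that in WT for HAMSAB against zero fiber was -0.83 ± 0.20 (adjusted p = 0.0213). These comparisons share libraries and called 2.19%, 1.68% and 1.08% of all genes. The first Arnt call was lost without zero fiber WT male replicate 1 (adjusted p = 0.145) or 2 (0.102). The third was lost without those libraries (0.108 and 0.0639) or zero fiber AD male replicate 3 (0.103). The second was kept with each library left out, at adjusted p from 0.00234 to 0.0346. Egln1, a prolyl hydroxylase that marks HIF-1 alpha for decay, fell on HAMSAB, with 29.6 ± 7.14 CPM against 38.3 ± 10.4 CPM on control (n = 16 each, log2 -0.40 ± 0.12, adjusted p = 0.0381), where 4.52% of all genes were called. That call was lost with 13 of the 32 libraries left out one at a time and with the title-series term, at adjusted p up to 0.0964. Over the 12 tested genes the median for HAMSAB against control was -0.05.

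The enzymes varied only loosely together from library to library. Log2 CPM was taken as the deviation from the mean of each of the 12 diet, genotype and sex groups, over the 45 libraries of at least 500000 counts. Among the 8 enzymes other than Pgk1 and Pgam1, the 28 pairs had a median Pearson r of 0.11, and 19 were above 0. Values ran from -0.33 for Gapdh with Eno1 to 0.53 for Aldoa with Ldha. Pfkl with Ldha had 0.41, Aldoa with Eno1 0.41 and Eno1 with Ldha 0.34, and Gpi1 was below 0 with Aldoa at -0.28. These are descriptions across libraries that share depth and normalization, with no test.

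**Figure D5:**
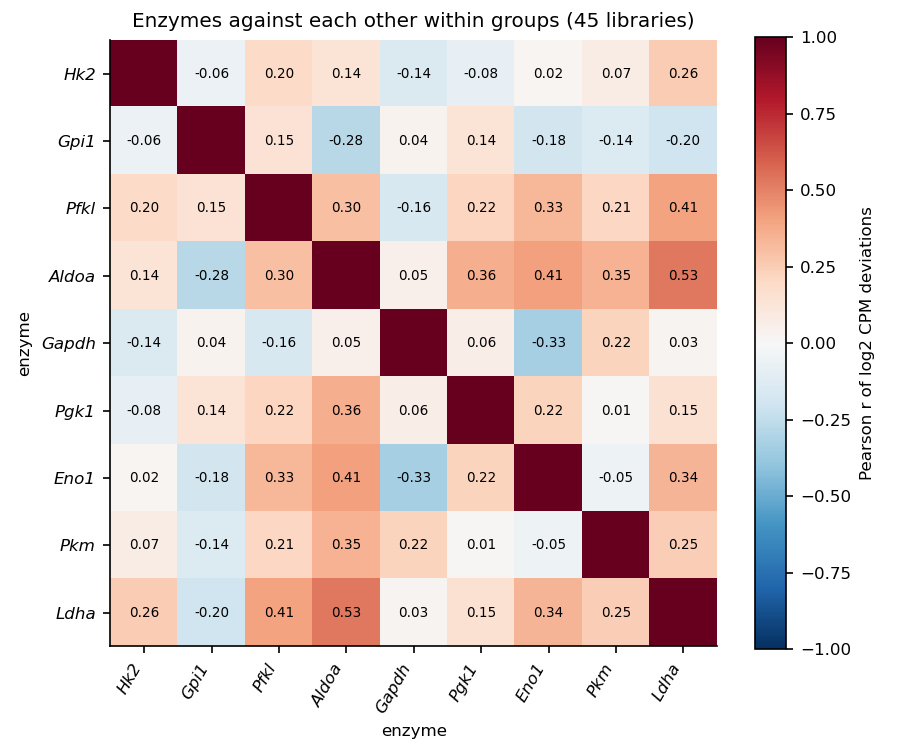
Pearson r between the tested enzymes (both axes) of log2 CPM deviations from group means over 45 libraries, red above 0 and blue below. The deepest red off the diagonal is Aldoa with Ldha at 0.53, and Gapdh with Eno1 is lowest at -0.33.

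The mean of the 9 tested enzymes within groups was most like Rab20 (r = 0.70), a small GTPase, and Atp5c1 (r = 0.68), a subunit of mitochondrial ATP synthase. Gm3511 (0.64), Ahsa1 (0.61), Jam2 (0.60), Ndufb11 (0.60), Ftl1 (0.59) and Il10ra (0.58) followed, among 7463 genes compared over 45 libraries. That mean had r = -0.43 with the log10 total count of the library. When only the 8 better-counted enzymes entered the mean, r with the total was -0.28 and the list was led by Cox6b1 (0.64), a subunit of cytochrome oxidase. The 2 means differ only by Pgk1, which had a median of 4 counts per library. Atp5c1 was the only gene in both lists of 8, so the other names, Rab20 among them, depended on whether Pgk1 entered.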

How the data were processed

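The authors deposited raw read counts per gene symbol, 1 column per library, with no normalization. The tools STAR 2.5.2b and featureCounts 1.5.2 and the build GRCm38 (mm10) are listed in the submitters' processing notes. Which annotation release, which strand setting and what rule for reads matching several genes is not given in the sources used here.

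All comparisons came from 1 fit over the 46 libraries with a mean for each of 12 diet, genotype and sex groups (edgeR 4.0.16 quasi-likelihood F test, TMM factors, filterByExpr, R 4.3.3), with Benjamini-Hochberg adjustment over the 12121 genes tested and a call at adjusted p under 0.05. Diet and genotype comparisons averaged the sexes equally. SE is that of the fit. CPM uses the TMM-adjusted library size, and SD is over libraries. The edgeR test of HAMSAB against control was also run on simulated counts. These were drawn from the kind of distribution the test assumes, so the run cannot check it on outlying libraries or shared reads. Coordinates, transcripts and window sharing came from GENCODE M21 (GRCm38), in which the symbol Aldoa has 2 loci, and the one with the principal transcript was used. Promoters came from RefSeq (all 10 members matched).

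The enzymes, the 4 pathway lists and the 10 marker lists were chosen with earlier results of these data known. Any member may be named in any comparison, and those not named had an unadjusted p of 0.05 or more there. From a pathway list, called genes may be named, or up to 3 of smallest p where none was called. The 8 genes of most like pattern were ranked by Pearson r. Alternatives were DESeq2 1.42.0 and its size factors, limma 3.58.1 voom with quality weights, no low-count filter, removal of a length trend, a title-series term, 6 groups plus sex, only the compared libraries, no doubted libraries and each library left out. Summing Eno1 and Eno1b was added after the data were seen.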

Additional observations from a re-analysis of the deposited data

Results flagged for a closer look

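In 60 sets of libraries (10 enzymes in 6 diet-by-genotype groups), the highest or lowest library was compared with the rest of its group by Dixon's test, which flags about 1 in 20 groups by chance. There were 7 such values. In zero fiber AD male replicate 2, the library of 52114 counts, 4 enzymes stood apart: Hk2 at 185 CPM from 12 reads (others 396 to 506 CPM), Pfkl at 15.5 CPM from 1 read (others 54.8 to 85.1 CPM), Gapdh at 0.0 CPM (others 10.3 to 13.8 CPM) and Pgam1 at 15.5 CPM from 1 read (others up to 1.86 CPM). Gpi1 stood at 143 CPM from 116 reads in zero fiber AD male replicate 1, the library of second-lowest total at 783849 counts, with the others between 78.5 and 92.7 CPM. Pgam1 stood at 4.14 CPM from 11 reads in HAMSAB AD male replicate 4, with the others at 0.873 CPM or below. Eno1 stood at 53.6 CPM from 70 reads in HAMSAB WT male replicate 4, with the other 7 libraries of that group between 67.2 and 79.0 CPM. Its change against control in WT was called without that library, in a fit that called 164 genes there, against 34 with all libraries.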

How the results depend on the processing

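The number of enzymes called was compared with 579 alternative counts over the 17 comparisons, and 578 equalled the main one. The exception was HAMSAB against control in WT, where the count ran from 0 to 1 over the libraries left out in turn, with 1 (Eno1, log2 0.45, adjusted p = 0.0467) without HAMSAB WT male replicate 4. Over all genes the count in WT then rose from 34 to 164. Eno1 for HAMSAB against control over both genotypes was called under each alternative, with log2 values from 0.28 (Eno1 and Eno1b summed) to 0.41 and adjusted p from 0.0024 to 0.0230. Of the 153 fold changes of enzymes, 92 kept their sign under every alternative and 61 did not, and the latter were not called. The count over all genes moved more. For HAMSAB against control over both genotypes it was 548 of 12121 genes tested, or 4.52%, with 773 with voom and 351 with the title-series term. Without the low-count filter it was 982 of 31448 genes, a smaller share of 3.12%. It was 338, 360, 299 and 917 without HAMSAB AD female replicate 1, HAMSAB WT female replicate 1, and HAMSAB WT male replicates 2 and 4, and 358, 324 and 348 without control AD female replicate 2, control AD male replicate 1 and control WT female replicate 2. No paired analysis was possible because the labels carry no replicate numbers. A fit of only the compared libraries was not made for the comparisons pooled over genotypes, diets or sexes. Depth limits Pgk1 and Pgam1 most, with medians of 4 and 1 counts per library.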

Other observations

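Genes around the pathway that the comparisons did not name were counted at very different levels over the 46 libraries. P4ha1, a collagen prolyl hydroxylase and HIF-1 target, averaged 340 ± 49.7 CPM, and Ddit4, a stress gene that restrains mTOR, averaged 170 ± 92.6 CPM. Hif1a averaged 99.2 ± 15.5 CPM, while Epas1, which encodes HIF-2 alpha, had 44 counts in all. Pdk1, which slows the entry of pyruvate into mitochondria, averaged 118 ± 14.9 CPM, and Pdk4 had 4 counts in all. Of the subunits of the mitochondrial pyruvate carrier, Mpc2 stood at 70.6 and Mpc1 at 4.98 CPM per kilobase of transcript, and 55.8% of the Mpc1 windows were found in no other gene, against all of the Mpc2 windows.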
